A study of Mus musculus with 8 samples.

Results

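The genes described here are 8 signalling genes of the enteric nervous system, followed across the cells of mouse colon assembloids. They are the receptor tyrosine kinase gene Ret, the co-receptor genes Gfra1 and Gfra2, the ligand genes Gdnf and Nrtn, the endothelin genes Edn3 and Ednrb, and the transcription factor gene Sox10. They were chosen by name, with earlier results of these data known, and all 8 were found among the 32285 genes of the deposited annotation. In the developing gut, GDNF and neurturin bind GFRA1 and GFRA2, which hand the signal to RET on migrating neural crest cells. Endothelin-3 acts on its receptor EDNRB on the same cells, and SOX10 keeps crest progenitors and later marks enteric glia. Loss of function in several of these genes, though not in all, is known for leaving stretches of the bowel without ganglia.

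Assembloids are co-cultures in which colon organoids and cultured primary stromal cells are joined in a drop of Matrigel, and cells were read with a droplet assay that counts the 3' ends of transcripts as unique molecular identifiers (UMIs). The 8 libraries held live cells sorted from 4 sources, 2 libraries each: stromal (EpCAM-negative) cells of assembloids, epithelial cells of assembloids, epithelial cells of organoids, and epithelial cells of colon tissue. The mice were C57BL/6 (males of 6 to 12 weeks in the study's methods), and the labels give no treatment or gene deletion for any library. Stromal cells had been cultured in medium with serum before assembly, so no library is a sample of fresh stroma. The stromal libraries held 18068 cells after filtering, with median depths of 15448.5 and 13246 UMIs in libraries 1 and 2, and the epithelial libraries held from 4310 to 29410 cells each with medians from 3444 to 35219 UMIs.

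Stromal cells were sorted into classes by counting detected marker genes, none of which is one of the 8 genes. A cell entered the neuron, glia, endothelial, epithelial, immune or mesothelial class with at least 3 markers of that class and fewer than 3 of each of the others. Cells in none of these were fibroblasts if they had at least 3 fibroblast markers, so cells of the other classes may carry fibroblast transcripts. Libraries 1 and 2 gave 7680 and 8633 fibroblasts, 59 and 95 neuron-like cells, 126 and 110 glia-like cells and 33 and 74 endothelial-like cells. All 12 neuron markers were found in the neuron-like cells of both libraries, and 9 of 10 glia markers were found in the glia-like cells. The classes were not free of other RNA. The 9 fibroblast markers summed to 3526 and 1959 UMIs per 1000000 UMIs of the class (CPM) in neuron-like cells and to 3544 and 3031 CPM in glia-like cells, against 8790 and 12522 CPM in fibroblasts, and the 12 neuron markers summed to 708 and 731 CPM in glia-like cells, 7 of them found. Squamous keratin markers were at 64.4 to 93.0 CPM in all 4 of these classes of library 1 and at 1.8 to 6.0 CPM in library 2. Their part in the values below was not tested. The stromal libraries shared 30 cell barcodes, within the range of 13 to 141 over all pairs of libraries.

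The positions of the genes, all protein-coding, are given on GRCm38. Ret is at chr6:118151745-118197718 on the minus strand, Gfra1 at chr19:58235604-58455909 on the minus strand, Gfra2 at chr14:70890120-70979838 on the plus strand and Ednrb at chr14:103814625-103844402 on the minus strand. Gdnf is at chr15:7810846-7837575 on the plus strand, Sox10 at chr15:79154908-79165240 on the minus strand, Nrtn at chr17:56751325-56757530 on the minus strand and Edn3 at chr2:174760619-174784042 on the plus strand. RefSeq promoter sequences (GRCm38.p6, from 250 bases before to 50 bases after a transcript start) were at hand for 5 of the 8 genes, with 2 starts for Gdnf. The sequences of 4 genes are shown because their levels differed between classes in different ways: Gdnf and Gfra1 were highest in glia-like cells, Nrtn was higher in fibroblasts than in neural cells, and Ednrb was high in neural cells and in 1 kind of fibroblast. Capitals mark the palindromic E-box CAGCTG, a motif bound by basic helix-loop-helix factors, or the TATA motif TATAAA searched on both strands.
Gdnf, first start, chr15:7809798-7810097, plus strand: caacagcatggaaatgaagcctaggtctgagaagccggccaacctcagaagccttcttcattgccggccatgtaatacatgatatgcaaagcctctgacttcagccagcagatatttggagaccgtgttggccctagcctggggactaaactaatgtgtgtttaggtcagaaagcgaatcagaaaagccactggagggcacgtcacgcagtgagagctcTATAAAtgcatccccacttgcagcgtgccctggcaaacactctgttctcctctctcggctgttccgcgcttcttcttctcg
Gfra1, chr19:58455349-58455648, minus strand: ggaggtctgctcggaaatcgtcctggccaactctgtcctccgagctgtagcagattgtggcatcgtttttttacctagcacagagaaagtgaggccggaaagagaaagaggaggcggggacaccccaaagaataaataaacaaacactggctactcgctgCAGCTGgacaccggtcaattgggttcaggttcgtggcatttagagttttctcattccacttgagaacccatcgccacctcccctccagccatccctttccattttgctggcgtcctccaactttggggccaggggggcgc
Nrtn, chr17:56757499-56757798, minus strand: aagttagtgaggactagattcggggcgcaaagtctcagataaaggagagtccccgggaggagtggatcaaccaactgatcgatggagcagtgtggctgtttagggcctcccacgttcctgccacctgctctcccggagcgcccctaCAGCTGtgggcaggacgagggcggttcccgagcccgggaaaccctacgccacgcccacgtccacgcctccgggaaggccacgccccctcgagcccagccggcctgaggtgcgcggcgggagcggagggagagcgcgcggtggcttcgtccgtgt
Ednrb, chr14:103843652-103843951, minus strand: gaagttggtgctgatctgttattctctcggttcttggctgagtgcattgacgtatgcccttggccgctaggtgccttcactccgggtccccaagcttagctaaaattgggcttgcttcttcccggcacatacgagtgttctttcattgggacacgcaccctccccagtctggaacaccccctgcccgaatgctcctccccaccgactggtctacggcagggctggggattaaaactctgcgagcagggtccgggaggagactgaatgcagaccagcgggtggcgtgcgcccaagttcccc

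The E-box CAGCTG was present in 3 of the 6 promoters of these genes, those of Gfra1 (from base -90), Nrtn (from base -104) and Edn3 (from base -77), and in 16.3% of all 32851 promoters. TATAAA was present in the first Gdnf promoter alone (from base -31) and in 13.6% of all promoters. The SOX core ACAAAG, on either strand, was present in none of the 6 and in 18.7% of all promoters. These are matches of letters in a short window and carry no information on binding.

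Fibroblasts carried most of the ligand transcripts, and they made up most of the cells, but the highest level of Gdnf was in glia. Gdnf, the ligand that GFRA1 presents to RET, had 426 and 428 UMIs in fibroblasts, which was 80.5% and 86.1% of all Gdnf UMIs in libraries 1 and 2. Its level there was 3.30 and 3.23 CPM. Fibroblasts were 85.1% and 95.4% of the kept cells, above their share of the Gdnf UMIs. Glia-like cells held 55 and 52 Gdnf UMIs, a level of 51.1 and 51.8 CPM. Neuron-like cells had 3.39 and 5.89 CPM, and endothelial-like cells 5.70 and 2.44 CPM. The 2 libraries differed little and the glial values did not overlap those of these other classes. Gdnf was 15.3-fold higher in glia-like cells than in fibroblasts (log2 fold change 3.93, SE 0.27, edgeR quasi-likelihood test, Benjamini-Hochberg adjusted p = 1.2e-05, 2 libraries per class). In neuron-like cells against fibroblasts its log2 fold change was 0.41 (SE 0.41, edgeR adjusted p = 0.50). Gdnf was found in 28.6% and 28.2% of glia-like cells and in 4.95% and 4.39% of fibroblasts. With cells thinned to 2000 UMIs, and the shallower cells left out (2 and 5 glia-like cells, 34 and 13 fibroblasts), the shares were 14.5% (exact 95% interval 8.84 to 22) and 10.5% (5.35 to 18.0) of glia-like cells against 0.562% and 0.603% of fibroblasts.

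Nrtn, which encodes neurturin, the ligand that GFRA2 presents to RET, had the opposite order. It had 1521 and 1529 UMIs in fibroblasts, 11.8 and 11.5 CPM, which was 84.6% and 96.7% of all its UMIs. That was close to the share of fibroblasts among the kept cells, 85.1% and 95.4%. Neuron-like cells had 5 and 8 UMIs (4.23 and 5.89 CPM) and glia-like cells 4 and 1 (3.71 and 0.996 CPM). Cells gated as epithelial within the stromal libraries had 8.91 and 12 CPM, a range that overlapped the fibroblasts. These cells numbered 1009 and 85. In the clustering described below, a cluster named from squamous markers (led by Lgals7, Krt15 and Ly6d) held 887 and 48 cells. One named from epithelial markers (led by Agr2, Lgals4 and Spink4) held 55 and 34. The epithelial gate may therefore not stand for colon epithelium of 1 kind. Nrtn was lower in glia-like cells than in fibroblasts (log2 fold change -2.32, SE 0.49, edgeR adjusted p = 0.0089) and lower in neuron-like cells (log2 fold change -1.31, SE 0.38, edgeR adjusted p = 0.029). The call in glia-like cells was lost without the second glia sum (adjusted p = 0.075). The call in neuron-like cells was lost when any 1 of the 4 class sums was left out (adjusted p from 0.096 to 0.14).

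Edn3, which encodes endothelin-3, was close to the limit of detection. It had 5 and 12 UMIs in fibroblasts (0.0387 and 0.0905 CPM), 2 and 0 UMIs in neuron-like cells and 0 and 5 UMIs in glia-like cells, and it did not pass the filter on low counts in any stromal fit. Over both libraries 25 of 18068 stromal cells had an Edn3 UMI, and 12 of the 25 fell in the neuron cluster of 427 cells that is described below. In library 2 Edn3 was found in 4.55% of glia-like cells (exact 95% interval 1.49 to 10.3) and in 0.139% of fibroblasts (0.0718 to 0.243), and in library 1 in 0 of 126 glia-like cells, which allows a share of cells with a UMI of up to 2.38%. Of the glia-like cells with Edn3 in library 2, 4 fell in the neuron cluster and 1 in the glia cluster.

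**Figure D1:**
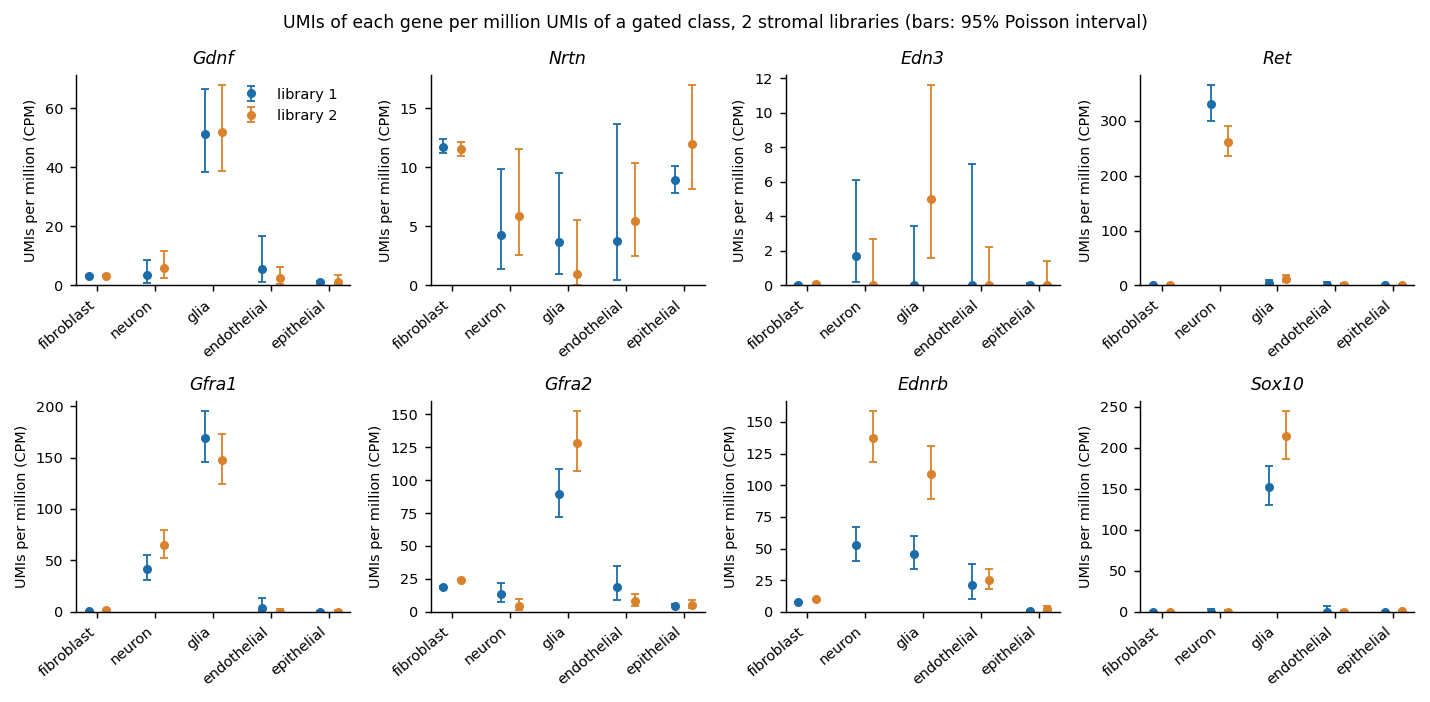
Level of each gene in 5 gated classes of the 2 stromal libraries, in CPM (UMIs of the gene scaled to the summed UMIs of the class). Each point is 1 library with its 95% Poisson interval, which covers counting error only. Ret stands at 331 and 262 CPM in neuron-like cells, Sox10 at 152 and 214 CPM in glia-like cells and Gdnf at 51.1 and 51.8 CPM in glia-like cells, while Nrtn is highest in fibroblasts and in cells gated as epithelial.

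Ret, the signalling receptor, was a gene of the neuron-like cells. It had 391 and 356 UMIs there, 331 and 262 CPM, which was 70.1% and 78.2% of all Ret UMIs from 0.654% and 1.05% of the cells. Fibroblasts had 46 and 44 UMIs (0.356 and 0.332 CPM) and glia-like cells 4 and 11 (3.71 and 11 CPM). The neuron-like values lay far above those of fibroblasts, glia-like and endothelial-like cells in both libraries. The 20 and 9 mixed cells, which met more than 1 gate, had 126 and 182 CPM. Ret was 781-fold higher in neuron-like cells than in fibroblasts (log2 fold change 9.61, SE 0.34, edgeR adjusted p = 6.0e-07) and 38.7-fold higher than in glia-like cells (log2 fold change 5.27, SE 0.35, edgeR adjusted p = 3.7e-05). It was found in 86.4% (exact 95% interval 75.0 to 94.0) and 68.4% (58.1 to 77.6) of neuron-like cells, against 0.495% and 0.510% of fibroblasts at similar median depths (13095 and 12503 UMIs against 14844 and 13259). The median mitochondrial share was 6.15% and 7.55% in neuron-like cells, 3.90% and 4.12% in fibroblasts and 3.63% and 3.76% in glia-like cells. With cells limited to at most 5% mitochondrial UMIs the log2 fold change of Ret against fibroblasts was 8.73 (edgeR adjusted p = 1.1e-06). In cells thinned to 2000 UMIs the shares were 50.8% and 36.8% against 0.0785% and 0.0928%.

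The few Ret UMIs of glia-like cells were 20.2-fold above fibroblasts in the gates (log2 fold change 4.33, SE 0.56, edgeR adjusted p = 6.1e-04), a call that depended on how glia were defined. All 15 of these UMIs came from the 30 glia-gated cells that clustered with the neurons. In the cluster named from glia markers, 0 Ret UMIs were found in 119 and 103 cells, and with clusters in place of gates the comparison was no longer called (adjusted p = 0.45).

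Gfra1, the co-receptor for GDNF, was found in both neural classes and was highest in glia. Glia-like cells had 182 and 148 UMIs (169 and 147 CPM) and neuron-like cells 49 and 88 (41.5 and 64.7 CPM). Fibroblasts had 0.805 and 1.35 CPM. The 3 classes did not overlap. Gfra1 was 142-fold higher in glia-like cells than in fibroblasts (log2 fold change 7.14, SE 0.41, edgeR adjusted p = 4.9e-06) and 45.3-fold higher in neuron-like cells (log2 fold change 5.50, SE 0.41, edgeR adjusted p = 1.6e-05). It was lower in neuron-like than in glia-like cells (log2 fold change -1.64, SE 0.36, edgeR adjusted p = 0.015), a call that was lost without the first neuron sum (adjusted p = 0.092) and without either glia sum (0.099 and 0.065).

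Gfra2, the co-receptor for neurturin, differed from Gfra1 in that fibroblasts expressed it and neuron-like cells had little. Glia-like cells had 96 and 129 UMIs (89.1 and 129 CPM), fibroblasts 2435 and 3193 UMIs (18.8 and 24.1 CPM) and neuron-like cells 16 and 6 UMIs (13.5 and 4.41 CPM). It was 4.9-fold higher in glia-like cells than in fibroblasts (log2 fold change 2.29, SE 0.31, edgeR adjusted p = 9.2e-04) and lower in neuron-like than in glia-like cells (log2 fold change -3.72, SE 0.44, edgeR adjusted p = 6.9e-04). Its lower level in neuron-like cells than in fibroblasts (log2 fold change -1.43, SE 0.45, edgeR adjusted p = 0.040) was not called without the second neuron sum (adjusted p = 0.33) or the second fibroblast sum (0.10). Gfra2 was found in 48.4% and 55.5% of glia-like cells and in 23% and 25.9% of fibroblasts.

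Ednrb, the receptor for endothelins, had similar levels in the 2 neural classes. Neuron-like cells had 62 and 187 UMIs (52.5 and 138 CPM) and glia-like cells 49 and 109 (45.5 and 109 CPM). Both classes were lower in library 1 than in library 2, and the classes overlapped. Endothelial-like cells had 20.9 and 25.0 CPM and fibroblasts 7.50 and 9.71 CPM. Ednrb was 10.3-fold higher in neuron-like cells than in fibroblasts (log2 fold change 3.36, SE 0.47, edgeR adjusted p = 7.4e-04) and 8.61-fold higher in glia-like cells (log2 fold change 3.11, SE 0.48, edgeR adjusted p = 0.0019). These folds are against all fibroblasts together, which were unlike in Ednrb. In the clustering described below, 2 fibroblast clusters had 38.0 and 30.5 CPM over both libraries, and the other fibroblast clusters 0.63 to 2.55 CPM. The first 2 lay above endothelial-like cells, and in library 1 not far below glia-like cells. Between neuron-like and glia-like cells its log2 fold change was 0.25, with an interval of 2 standard errors from -0.71 to 1.22 (edgeR adjusted p = 0.81). In endothelial-like cells against fibroblasts the log2 fold change was 1.41 (SE 0.57, edgeR adjusted p = 0.13). With the library as a block, which pairs the classes of 1 library, that change was 1.21 with an adjusted p of 0.027.

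Sox10 marked the glia. Glia-like cells had 164 and 215 UMIs (152 and 214 CPM), which was 82.0% and 88.5% of all its UMIs. Fibroblasts had 24 and 23 UMIs (0.186 and 0.173 CPM). No Sox10 UMI was found in 59 and 95 neuron-like cells, which allows shares of cells with a UMI of up to 5.08% and 3.16%, nor in any endothelial-like cell. Sox10 was 968-fold higher in glia-like cells than in fibroblasts (log2 fold change 9.92, SE 0.30, edgeR adjusted p = 1.5e-06). Against a floor of 3 UMIs per class and library, its level in glia-like cells was at least 59.9-fold and at least 97.1-fold higher than in neuron-like cells. It was found in 60.3% and 73.6% of glia-like cells and in 0.286% and 0.255% of fibroblasts, which should lack it.

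Counted together, 5 of the 7 genes tested were called between neuron-like cells and fibroblasts, 3 higher and 2 lower, where 29.5% of all 10657 genes tested were called, 16.6% higher and 13.0% lower. Between glia-like cells and fibroblasts 7 of 7 were called, 6 higher and Nrtn lower, where 21.9% of all genes were called, 12.9% higher and 9.03% lower. Between neuron-like and glia-like cells 5 of 7 were called, Ret higher and 4 lower, where 15.0% of all genes were called, 7.48% higher and 7.50% lower. Between endothelial-like cells and fibroblasts edgeR called 0 of 7 (2 at an unadjusted p under 0.05, Nrtn and Ednrb), where 17.2% of all genes were called, 9.49% higher and 7.69% lower. The genes had been selected for roles in neural cells, so these counts describe them and are no independent evidence.

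**Figure D2:**
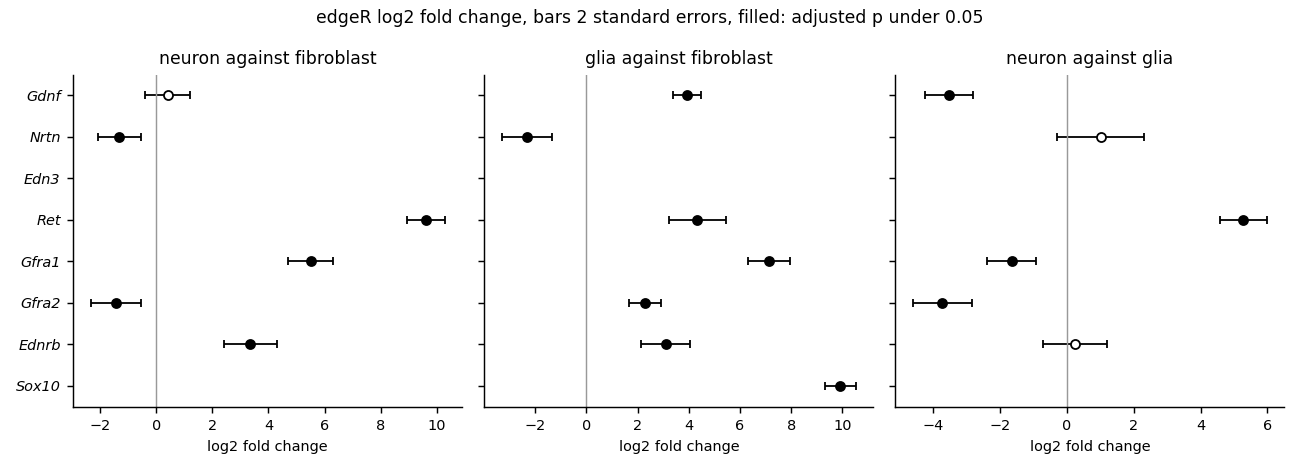
Log2 fold change of each gene in 3 comparisons of gated classes, from the edgeR fit, with bars of 2 standard errors. Filled points have an adjusted p under 0.05, and Edn3 (not tested) and comparisons with Sox10 at 0 are left blank. Ret separates neuron-like from glia-like cells in 1 direction, at 5.27, and Gfra2, Gdnf and Gfra1 in the other, at -3.72, -3.52 and -1.64.

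The detection of the receptors was also compared within single cells, where a gene without a UMI may still be expressed. Of the Ret-positive neuron-like cells, 51 in library 1 and 65 in library 2, Gfra1 was found in 49.0% (exact 95% interval 34.8 to 63.4) and 66.2% (53.4 to 77.4). Gfra2 was found in 7.84% and 6.15% of them. A UMI of Gfra1 alone was found in 23 and 41 cells, of Gfra2 alone in 2 and 2, of both in 2 and 2, and of neither in 24 and 20. Ednrb was found in 45.1% and 58.5% of Ret-positive cells. Among neuron-like cells without a Ret UMI, which numbered 8 and 30, Gfra1 was found in 2 and 6 cells (25.0% in library 1) and Ednrb in 2 and 9 cells. Gfra2 was found in 37.5% of them in library 1 (exact 95% interval 8.52 to 75.5) and 3.33% in library 2. The median depths of cells with and without Ret were 13076 and 19442 UMIs in library 1 and 13360 and 9085 UMIs in library 2. The intervals of the 2 kinds of cell were apart for Gfra1 in library 2 and overlapped for Gfra1 in library 1 and for Ednrb in both libraries.

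Glia-like cells with Sox10 carried co-receptors, with no Ret UMI found in them. Gfra1 was found in 72.4% and 74.1% of the 76 and 81 Sox10-positive cells, Gfra2 in 48.7% and 65.4%, Gdnf in 30.3% and 33.3%, and Ednrb in 27.6% and 55.6%. Ret was found in 0 of 76 and 0 of 81, which allows shares of cells with a UMI of up to 3.95% and 3.70%, while 1 of 50 and 4 of 29 glia-like cells without Sox10 had it. In library 2 the intervals for Gfra1, Gfra2 and Ednrb were apart between cells with and without Sox10, whose median depths were 8635 and 6848 UMIs. In library 1 the intervals of all 3 overlapped, at median depths of 7507 and 7571 UMIs.

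**Figure D3:**
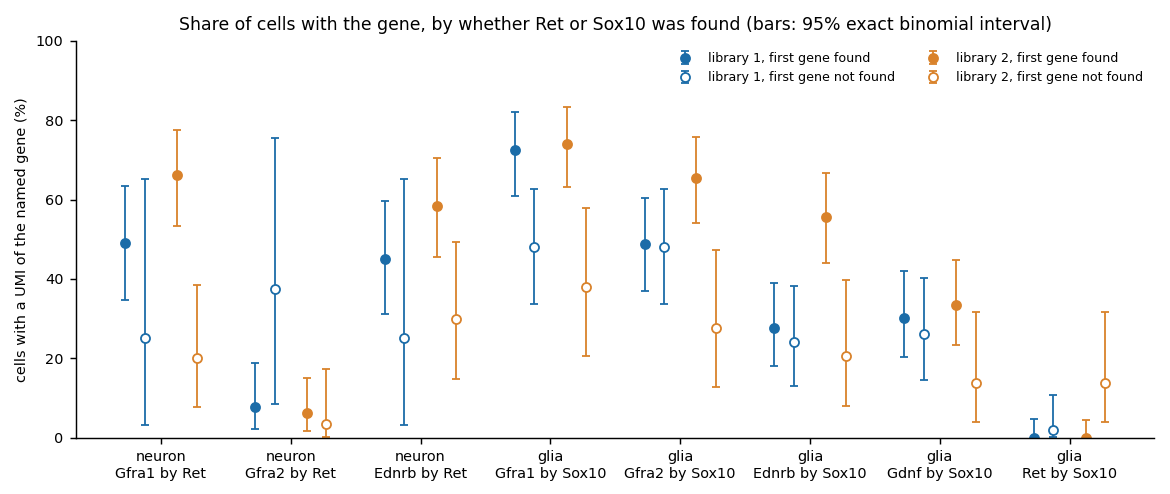
Share of cells with a UMI of the named gene, split by whether Ret (neuron-like cells) or Sox10 (glia-like cells) was found in the same cell. Points are single libraries with exact 95% binomial intervals, filled where Ret or Sox10 was found. Gfra1 reaches 72.4% and 74.1% of Sox10-positive glia-like cells, and Ret is at 0 in them.

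The neuron cluster was wider than the neuron gate. Clustering of the stromal cells, made without the 8 genes and without the pathway genes listed below, gave a cluster of 427 cells led by neuron markers. It held 148 neuron-gated and 30 glia-gated cells, 175 cells gated as fibroblasts and 62 that met no gate, with 11 mixed cells and 1 epithelial-gated cell. Ret was at 398 and 272 CPM in its neuron-gated cells, at 17.9 and 122 CPM in its glia-gated cells and at 11.8 and 13.9 CPM in its fibroblast-gated cells, against 0.23 to 0.26 CPM in the largest fibroblast cluster. Ednrb followed with 63.9 and 138 CPM, 31.3 and 145 CPM, and 14.5 and 69.5 CPM in the same 3 sets. Edn3 was found at 4 UMIs in 10 glia-gated cells of library 2 and at 0 in the 20 of library 1. The 11 mixed cells of this cluster had Ret at 590 and 453 CPM and Ednrb at 274 and 203 CPM. Removing the fibroblast-gated cells of this cluster, a choice made after seeing the data, left 5 genes called between neuron-like cells and fibroblasts, with Ret at a log2 fold change of 9.94.

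Fibroblasts were not uniform, and Ednrb drew the sharpest line among them. The clusters were named from markers as telocyte-like (2 clusters, 1372 and 1988 cells in libraries 1 and 2), trophocyte-like (3 clusters, 3635 and 4804 cells) and unnamed (3 clusters, 2656 and 1799 cells). Telocytes are fibroblasts that line the crypt, and trophocytes lie beneath it. Ednrb had 826 and 1165 UMIs in telocyte-like fibroblasts (34.2 and 35.2 CPM) against 61 and 56 UMIs in trophocyte-like ones (1.18 and 0.918 CPM) and 1.39 and 1.25 CPM in the unnamed ones. The telocyte-like values were apart from all others in both libraries. The difference between telocyte-like and trophocyte-like fibroblasts was 32.0-fold (log2 fold change 5.0, SE 0.14, edgeR adjusted p = 0.0016). Ednrb was found in 27.3% and 25.5% of telocyte-like and in 1.18% and 1.14% of trophocyte-like fibroblasts. Both telocyte-like clusters had it, at 41.1 and 35.8 CPM in cluster 1, led by Adamdec1, Car3 and Kcnk2, and at 25.3 and 34.4 CPM in cluster 5, led by Ccl12, Bean1 and Bmp5.

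Gfra2 and Nrtn ran the other way. Gfra2 was at 10.9 and 12.2 CPM in telocyte-like and at 26.3 and 32.0 CPM in trophocyte-like fibroblasts (log2 fold change -1.38, SE 0.21, edgeR adjusted p = 0.013). That call was lost without either telocyte-like sum (adjusted p = 0.080 and 0.076) or the second trophocyte-like sum (0.052). Nrtn was at 8.03 and 6.26 CPM against 14.2 and 14.6 CPM (log2 fold change -1.07, SE 0.14, edgeR adjusted p = 0.0086). Gfra1 was low in both, at 0.248 and 0.302 CPM against 0.679 and 1.90 CPM, with a log2 fold change of -2.27 (SE 0.63, edgeR adjusted p = 0.061). With the library as a block the change in Gfra1 was -2.26 with an adjusted p of 0.0081. Gdnf was at 3.27 and 3.63 CPM against 2.97 and 2.70 CPM (log2 fold change 0.23, interval of 2 standard errors from -0.07 to 0.54, edgeR adjusted p = 0.33), and Ret stood at a log2 fold change of -0.03 (SE 0.47, edgeR adjusted p = 0.97). Of the 6 genes tested, 3 were called, Ednrb higher and 2 lower, where 19.2% of all 15081 genes tested were called, 11.3% higher and 7.97% lower. Edn3 and Sox10 did not pass the filter.

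**Figure D4:**
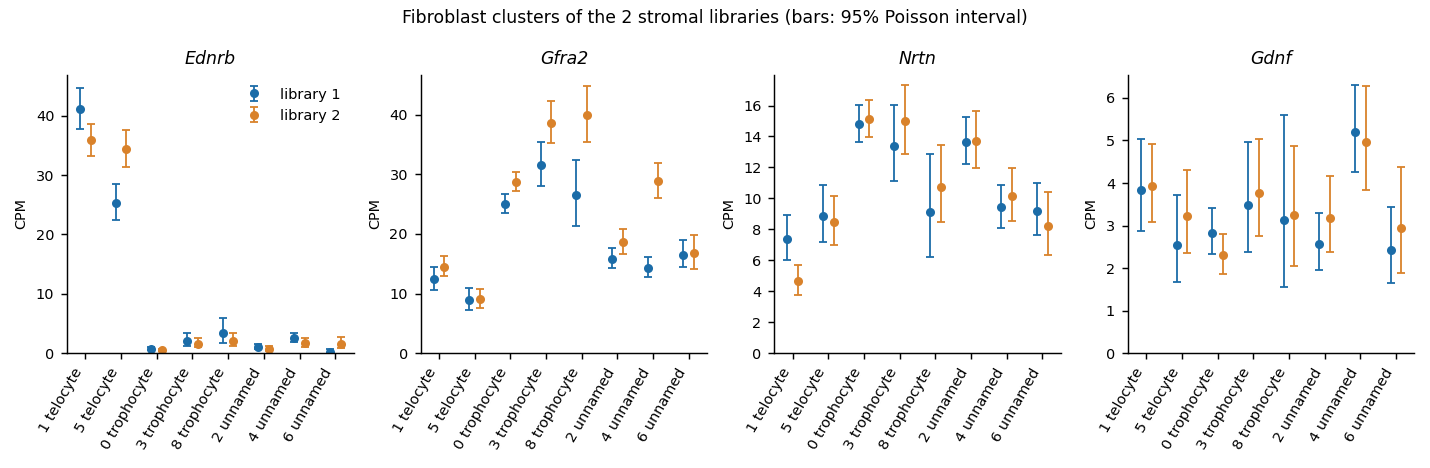
Level of 4 genes in the 8 fibroblast clusters of the stromal libraries, in CPM. Points are single libraries with 95% Poisson intervals. Ednrb is at 25.3 to 41.1 CPM in the 2 telocyte-like clusters, and Gfra2 and Nrtn are lower there than in the largest trophocyte-like cluster (25.1 and 28.7 CPM, and 14.8 and 15.1 CPM). Other clusters come close to the telocyte-like ones in Nrtn. Over both libraries it is at 8.64 CPM in telocyte-like cluster 5. It is at 8.81 and 9.71 CPM in unnamed clusters 6 and 4 and at 10.2 CPM in trophocyte-like cluster 8. Gdnf varies between 2.30 and 5.21 CPM.

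The wider pathways were followed through 3 lists chosen, like the 8 genes, with earlier results known. Of 17 further genes of GDNF family and RET signalling, 13 were tested in the gated classes. In neuron-like cells against fibroblasts 4 rose and 2 fell, where 29.5% of all genes were called (median log2 fold change 0.34, against -0.01 over all genes tested), with Ncam1, an adhesion molecule that can also bind GDNF, highest at 4.35 (edgeR adjusted p = 2.9e-05) and Artn, the ligand artemin, lowest at -2.31 (edgeR adjusted p = 0.0018). In glia-like cells against fibroblasts 5 rose and 4 fell, where 21.9% of all genes were called (median 0.18, against -0.03). Dok4, a docking protein of RET, rose most, with 341 and 332 CPM in glia-like cells against 4.58 and 4.79 CPM in fibroblasts and 11.9 and 10.3 CPM in neuron-like cells. Etv4, a transcription factor induced by RET signalling, fell most, at -2.17 (edgeR adjusted p = 0.013), from 17.7 and 11.7 CPM in fibroblasts. Its 3.71 and 2.99 CPM in glia-like cells were close to a floor of 3 UMIs, which is 2.79 and 2.99 CPM there. Artn had 77.1 and 88.7 CPM in glia-like cells and 4.23 and 5.15 CPM in neuron-like cells, and was lower in the latter by a log2 fold change of -4.21 (edgeR adjusted p = 1.3e-04). In neuron-like against glia-like cells 3 of the 13 rose and 3 fell, where 15.0% of all genes were called.

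Of the 6 endothelin system genes, 2 were tested in the gated classes. Ednra, the second endothelin receptor, had 32.2 and 46.1 CPM in fibroblasts, 16.1 and 14.7 CPM in neuron-like cells and 7.43 and 15.9 CPM in glia-like cells. It fell in both neural classes against fibroblasts, at -1.48 (edgeR adjusted p = 0.015) and -1.81 (edgeR adjusted p = 0.012), the reverse of Ednrb. It was the 1 gene called of the 2 tested in each, where 29.5% and 21.9% of all genes were called. Ednra also fell in endothelial-like cells against fibroblasts, at -1.74 (edgeR adjusted p = 0.020), where 17.2% of all genes were called. In telocyte-like against trophocyte-like fibroblasts 1 of 3 tested was called, where 19.2% of all genes were, namely the converting enzyme gene Ece2, at 1.68 (edgeR adjusted p = 0.0052).

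Of 25 genes of neural crest and enteric nervous system development, 22 were tested. In neuron-like cells against fibroblasts 10 rose and 5 fell, where 29.5% of all genes were called (median 0.44, against -0.01 over all genes). Tlx2, a homeobox gene of enteric neurons, had 350 and 411 CPM in neuron-like cells, 0.0774 and 0.226 CPM in fibroblasts and 0 in glia-like cells. In glia-like cells 9 rose and 3 fell, where 21.9% were called (median 0.23, against -0.03). Ngfr, the p75 neurotrophin receptor, reached 528 and 537 CPM in glia-like cells and L1cam, an adhesion molecule of migrating crest cells, 124 and 159 CPM, both under 1 CPM in fibroblasts. Nrg1, a ligand for the ERBB receptors of glia, fell most, from 278 and 261 CPM in fibroblasts to 48.3 and 64.8 CPM. Between neuron-like and glia-like cells 4 rose and 4 fell, where 15.0% were called.

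By Pearson correlation of log2(CPM + 1) over 12 sums (6 gated classes in 2 libraries), a description over few and unequal classes that share their libraries, the genes most like Ret were Celf3 (r = 0.994), Miat (0.993) and Pirt (0.991). Those most like Sox10 were Olig1 (r = 0.998), Plxnb3 (0.998) and Fgf5 (0.993), and those most like Gfra1 were Hspb2 (r = 0.993), Fxyd7 (0.970) and Cryab (0.965). Gdnf was followed most closely by Itga7 (r = 0.982) and Rdh5 (0.957), and Gfra2 by Gbp2 (r = 0.976) and Runx2 (0.971). The remaining genes were Spag9 (r = 0.978), Dpysl2 (0.949) and Frmd4a (0.948) for Ednrb, and Nsrp1 (r = 0.957), Uqcrh (0.935) and Rpl21 (0.931) for Nrtn.

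In the epithelial libraries the genes were rare. Cells in the epithelial gate had at most 6.53 CPM of any of them, and Gfra2, Gdnf, Ednrb and Sox10 did not pass the filter on low counts. Nrtn was at 2.56 and 4.17 CPM in tissue, 1.26 and 1.69 CPM in assembloids and 6.53 and 4.65 CPM in organoids. It was higher in organoids than in assembloids (log2 fold change 1.80, SE 0.38, edgeR adjusted p = 0.0047), with no overlap between their libraries. Gfra1 was at 0.99 and 1.42 CPM in tissue and at 0.09 CPM in both assembloid libraries, and fell against tissue in assembloids (log2 fold change -3.31, SE 0.52, edgeR adjusted p = 0.0013) and in organoids (-4.40, SE 0.55, edgeR adjusted p = 4.1e-04). Of the 46 and 52 Gfra1 UMIs in gated tissue cells, 17 and 38 came from 25 and 45 cells that also had at least 3 neuron or glia markers. Without such cells in any library, a choice made after seeing the data, Gfra1 was at 0.63 and 0.39 CPM in tissue and both calls held at smaller sizes (log2 fold change -2.17, edgeR adjusted p = 0.012, in assembloids and -3.18, edgeR adjusted p = 0.0027, in organoids). Edn3 was at 0.82 and 1.25 CPM in assembloids and 0.30 and 0.45 CPM in organoids (log2 fold change -1.64, SE 0.41, edgeR adjusted p = 0.010). Ret was at 0.88 and 2.62 CPM in tissue, 1.21 and 2.08 CPM in assembloids and 0.46 and 0.70 CPM in organoids, and was lower in organoids than in assembloids (log2 fold change -1.67, SE 0.53, edgeR adjusted p = 0.029). That call was lost without either organoid library (adjusted p = 0.15 and 0.11) or without the second assembloid library (0.071), and that of Edn3 without the first organoid library (0.068).

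Assembloid epithelium against tissue gave 1 called gene of 4 tested, where 49.5% of all 19055 genes tested were called, 26.3% higher and 23.2% lower. Organoid against tissue gave 1 of 4, where 47.2% were called, 24.3% higher and 22.9% lower. Organoid against assembloid gave 3 of 4, Nrtn higher and 2 lower, where 52.4% were called, 24.2% higher and 28.2% lower. The Ret UMIs were unevenly spread over epithelial cells. Of the tissue cells with a UMI of Chga, a marker of hormone-secreting enteroendocrine cells picked after the values had been seen, 14.4% (exact 95% interval 8.76 to 21.8) and 12.3% (8.54 to 16.9) had Ret, against 0.339% and 0.337% of the other epithelial cells. The median depths were 9245 and 5424 UMIs in the first and 5793 and 3972 in the second. In assembloids the shares were 2.16% (0.703 to 4.96) and 9.85% (5.35 to 16.3) against 0.653% and 2.42%, and in organoids 10.4% (3.47 to 22.7) and 18.5% (6.30 to 38.1) against 1.36% and 0.783%. Most Ret UMIs of tissue came from cells with Chga, 26 of 41 and 82 of 96. In assembloids 8 of 173 and 19 of 210 did, and in organoids 10 of 87 and 6 of 64. Cells with Chga numbered 125 of 4260 and 261 of 4118 in tissue and 232 of 23508 and 132 of 6530 in assembloids. In organoids they numbered 48 of 4835 and 27 of 6666. The part of cell make-up in the epithelial differences above was not tested.

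**Figure D5:**
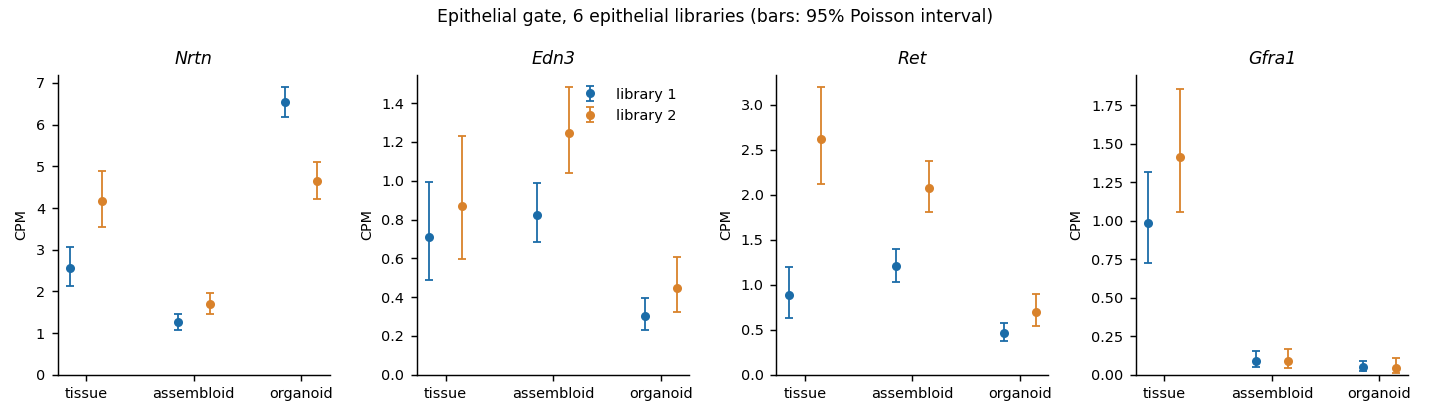
Level of the 4 genes that passed the filter in gated epithelial cells of tissue, assembloids and organoids, in CPM. Points are single libraries with 95% Poisson intervals. Nrtn is highest in organoids at 6.53 and 4.65 CPM, Gfra1 is highest in tissue at 0.99 and 1.42 CPM, and Ret and Edn3 are lower in organoids than in assembloids.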

How the data were processed

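Cells of mouse colon assembloids, organoids and tissue were profiled with the 10x 3' assay in 8 libraries. The authors made the deposited UMI counts with Cell Ranger (version 6 on mm10 in the submitters' notes, 6.0.1 in the headers of the stromal files and 7.1.0 in those of the epithelial files), and these raw counts are whole numbers per gene and cell. Barcodes were kept at 500 or more genes and 10% or less mitochondrial UMIs, the study's stated limits, which left 18068 of 18927 stromal barcodes, more than the study states. In the epithelial libraries these limits kept 38.7% and 25.4% of tissue barcodes, 89.3% and 55.1% of assembloid ones and 81.4% and 55.3% of organoid ones. The epithelial cells kept were more than the study states in assembloids and fewer in tissue and organoids. Doublets were not removed, since Scrublet (in scanpy 1.11.5) called almost none. Cells were classed by at least 3 detected markers. Squamous keratins, found across the classes of library 1, were not used as a gate but kept a cell with 4 or more of them out of the fibroblasts, a rule set after seeing the data. Clusters were made with the study's stated parameters in a later Seurat (5.3.0, SCTransform with mitochondrial regression, CCA, 30 components, resolution 0.2), but without the 8 genes and the listed pathway genes as features, so they need not match the study's.

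UMIs were summed per class and library and compared in edgeR 4.0.16 by its quasi-likelihood F test (filterByExpr, TMM, Benjamini-Hochberg over all genes tested, called at 0.05), with 8 gate sums, 6 fibroblast sums and 6 epithelial libraries each in 1 fit. The standard errors were derived from the log2 fold change and its F statistic. The scripts were tested on simulated data. CPM is UMIs per 1000000 UMIs of a class, and intervals (Poisson, Clopper-Pearson, 95%) and the floor of 3 UMIs cover counting error only. Shares of cells were also given after thinning cells to 2000 UMIs, leaving out shallower cells. The study's methods call the libraries of a group biological replicates and derive the stromal ones from 2 mice. Classes of 1 library come from the same cells' isolate and are paired: deviations of equal library numbers correlated at 0.07 to 0.23 between gated classes and at 0.67 to 0.73 between fibroblast classes. DESeq2 1.42.0 and the other alternatives are given at the end. The genes and gene lists were chosen with earlier results of these data known. The named genes were the 8 genes, the called list genes with the largest and smallest fold changes, and the 3 genes most like each gene among those with a mean of at least 50 CPM in its highest class. A few genes that this rule names are not reported here.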

Additional observations from a re-analysis of the deposited data

Results flagged for a closer look

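Ednrb and Gdnf were also found in cells of the assembloid epithelial libraries that lay outside the epithelial gate, which no comparison above uses. Ednrb had 11.1 and 13.8 CPM and Gdnf 3.50 and 4.93 CPM in these 5902 and 1192 cells of libraries 1 and 2, while no UMI of either gene was found in the cells outside the gate in the organoid libraries (37 and 1368 cells) or the tissue libraries (432 and 192 cells). In the subset of 396 and 132 cells that met the fibroblast gate, Ednrb was at 42.5 and 18.1 CPM and Gdnf at 11.5 and 10.7 CPM, against 7.50 and 9.71 CPM and 3.30 and 3.23 CPM in the fibroblasts of the stromal libraries. Differences in the sort, the depth and the Cell Ranger version between these libraries cannot be told apart from the groups, and the difference was not tested. The cells outside the gate in the tissue libraries, and the 37 in organoid library 1, held few UMIs. A level like that of Gdnf in the assembloid cells would give only a few UMIs there. Finding none therefore says little about Gdnf and sets only a loose limit on Ednrb. The contrast rests mostly on the 1368 cells of organoid library 2.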

How the results depend on the processing

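Of 574 refitted member fold changes, 530 kept their direction and their side of the threshold, 25 lost a call, 18 gained one and 1 reversed: Ret in glia-like cells against fibroblasts stood at -6.46 with clusters in place of gates, where glia had 0 UMIs, so that this fitted value is no bound. The genes called between neuron-like cells and fibroblasts numbered 3 without a filter, with 4 markers and with at most 5% mitochondrial UMIs (which left 20 and 11 neuron-like cells), and 3 to 4 leaving out 1 sum. Endothelial-like cells gave 1 under the replicate block, clusters, 4 markers and the Scrublet cut, and 0 to 0 leaving out 1 sum. Assembloid against tissue epithelium gave 4 without a filter, 2 with at most 5% mitochondrial UMIs and 1 to 4 leaving out 1 library. Organoid against tissue gave 3 without a filter and under DESeq2, 2 with at least 1000 genes per cell and with at most 5% mitochondrial UMIs, and 1 to 2 leaving out 1 library. Organoid against assembloid gave 6 without a filter and 1 to 5 leaving out 1 library. Leaving out 1 sum gave 6 to 7 for glia-like cells against fibroblasts, 4 to 5 for neuron-like against glia-like cells and 2 to 4 for telocyte-like against trophocyte-like fibroblasts. A class left with 1 sum was assumed to vary like the others. The cause of these changes was not tested. Without a filter, 10066, 9487 and 11029 of all 25991 genes were called in the 3 epithelial comparisons, in the order above. Between neuron-like cells and fibroblasts 2343 of 22786 genes were called without a filter and 3437 of 10529 with 4 markers. Under DESeq2, organoid against tissue gave 9018 of 19055. With at most 5% mitochondrial UMIs the first 2 epithelial comparisons gave 9135 and 9041 of 17955. Among the neuron, glia, endothelial, fibroblast and epithelial gates, the share of cells with a UMI was highest in a neural gate in both libraries for 7 of 8 genes, thinned or not and with 2 or 4 markers. No such count was made over all genes, and the 8 genes were selected for roles in neural cells. For Edn3 the neural gate differed between libraries. It was found in 1 of 59 thinned neuron-like cells in library 1 and in 3 of 105 thinned glia-like cells in library 2. Immune, mixed and unclassed cells are not counted there, and with 2 markers the 16 immune-gated cells of library 2 had Gfra2 in 18.75% of thinned cells against 17% of glia-like cells.

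The replicate block left 5, 7 and 5 genes called in the 3 neural comparisons, changed the calls of Ednrb in endothelial-like cells and of Gfra1 between fibroblasts and no other, and left 1, 1 and 3 called in epithelium, where libraries share only a number (correlations of deviations from -0.13 to 0.17). Of all genes, it raised the number called between fibroblasts from 2902 to 6419. Limiting mitochondrial UMIs to 5% lowered the number between neuron-like cells and fibroblasts from 3146 to 357 and between neuron-like and glia-like cells from 1596 to 788. Without a filter the numbers were 1400 (from 2334, glia-like against fibroblasts), 640 (neuron-like against glia-like) and 893 (from 1830, endothelial-like). With 2 markers 1003 and 185 were called in the last 2 comparisons, and with clusters 2814 in the last. Leaving out 1 sum gave 1402 to 3053, 1104 to 1644, 726 to 1352, 449 to 1949 and 754 to 2170 in the stromal comparisons, and 5142 to 9466, 5122 to 8575 and 7557 to 9620 in epithelium. Depth limits Edn3 most, with 8 and 18 UMIs in the stromal libraries.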

Other observations

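In the epithelial libraries, cells with at least 3 markers of more than 1 class carried Ret and Gfra1 in tissue. In the 32 and 53 such tissue cells, of which 25 and 45 also lay in the epithelial gate, Ret was at 29.4 and 116 CPM and Gfra1 at 54.0 and 83.5 CPM, against 0.88 and 2.62 CPM and 0.99 and 1.42 CPM in gated epithelial cells. Without them Ret was at 0.63 and 1.18 CPM in the gated tissue cells. In the 1432 and 282 such assembloid cells, of which 4 and 2 lay in the gate, Ret was at 1.11 and 1.96 CPM and Gfra1 at 0.123 and 0.356 CPM.

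Sox10 was found at 30 and 6 UMIs in the 23508 and 6530 gated epithelial cells of assembloids (0.209 and 0.0594 CPM), at 1 and 0 UMIs in those of organoids and at 0 in those of tissue. Ednrb had 111 and 9 UMIs in the same assembloid cells (0.775 and 0.0891 CPM), 1 and 0 in organoids and 0 in tissue. For scale, 2 Gfra2 UMIs in the gated tissue cells of library 1 were 0.043 CPM, and 1 in library 2 was 0.027 CPM. Levels as in assembloid library 2 would thus give only a few UMIs in tissue, so the 0 there says little about them. The contrast with tissue rests on assembloid library 1. Neither gene passed the low-count filter of the main fit. The fit without a filter held both genes, and their values in it are not reported here.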
